A study of Homo sapiens with 6 samples.

Results

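The SOCS family and the growth hormone STAT5 axis were followed in heat-treated residual MHCC97H cells with and without periostin (POSTN). The axis was taken as 10 genes, namely the growth hormone receptor GHR, the transcription factors STAT5A and STAT5B, and the feedback inhibitors CISH, SOCS1, SOCS2, SOCS3, SOCS4, SOCS5 and SOCS6. They are 10 of the 19775 gene symbols that the annotation of the Affymetrix Human Genome U133 Plus 2.0 array gives to at least 1 probe set of its own, and 29 of 54613 probe sets carry exactly 1 of the 10 symbols and no other. The genes were picked by name from this pathway after signals of the same 6 arrays had been seen, both between conditions and by replicate number, so their values are given here as a description. MHCC97H is an established human hepatocellular carcinoma (HCC) line, and all 6 samples had been heated at 47 °C, including the controls. The control group (3 arrays) then received 0 ng/mL and the POSTN group (3 arrays) 100 ng/mL of recombinant POSTN, a secreted matrix protein that binds integrins, for 24 h. Each group carries the replicate numbers 1, 2 and 3 in the sample labels, and neither the labels nor the methods say whether the samples came from separate cultures, so that the errors below measure the spread between these samples, which may be technical.

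In this pathway, a cytokine such as growth hormone binds its receptor, the receptor-bound Janus kinase JAK2 phosphorylates STAT5, and STAT5 enters the nucleus and switches on target genes. CISH and SOCS2 are classical STAT5 targets in liver, and SOCS3 is a target of STAT3 downstream of interleukin-6 (IL6) type cytokines. The proteins they encode bind phosphorylated receptors or kinases through an SH2 domain and recruit a ubiquitin ligase through the SOCS box, which closes a negative feedback loop. The mRNA levels of CISH, SOCS2 and SOCS3 are therefore widely used as readouts of STAT signalling.

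The upstream region of CISH is shown because it carries the recognition sequence of STAT factors in the family member best known as a STAT5 target. The RefSeq window (build GRCh38.p14) covers chr3:50611725-50612024 on the minus strand, from 250 bases before the annotated gene start to 50 bases after it, and is written 5′ to 3′ on the strand of the gene. Capitals mark each match to TTCNNNGAA, a pattern that reads the same on both strands.
CISH: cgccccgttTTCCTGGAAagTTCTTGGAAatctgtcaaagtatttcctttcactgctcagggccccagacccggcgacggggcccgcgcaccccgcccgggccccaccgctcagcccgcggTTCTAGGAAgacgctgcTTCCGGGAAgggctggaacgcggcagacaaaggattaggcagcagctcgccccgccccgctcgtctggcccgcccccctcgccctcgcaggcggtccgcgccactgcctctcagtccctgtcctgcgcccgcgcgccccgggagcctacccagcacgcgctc
The 4 matches do not overlap one another and differ in their centres.
CISH, 241 bases before the start: TTCCTGGAA
CISH, 230 bases before the start: TTCTTGGAA
CISH, 129 bases before the start: TTCTAGGAA
CISH, 112 bases before the start: TTCCGGGAA
Of 35116 such windows in the RefSeq table, 7.66% held at least 1 match and 0.0199% (7 windows) held 4 or more. The tighter form TTCCNGGAA, which 1.15% of all windows held, accounted for the matches at 241 and 112 bases. Windows were given for 8 of the 10 genes, and some genes had several, 17 in all. Among the 16 others, 1 of the 7 windows of GHR held a match (TTCAAAGAA, 138 bases before that start), and those of SOCS1, SOCS3, SOCS4, SOCS6, STAT5A and STAT5B held none. Such a match describes the letters in this window and is no measurement of binding.

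The values are log2 MAS 5.0 signals, and a signal was described as above background when it exceeded 5.98, the 95th percentile of the mean log2 signals of 107 olfactory receptor probe sets. Of the 29 probe sets, 18 had a mean above this level and 11 had not. GHR (1 probe set) and SOCS1 (4 probe sets) had none above it, while SOCS2 had 2 of 3, SOCS3 1 of 4, and STAT5B 3 of 5. SOCS4, SOCS5, SOCS6, CISH and STAT5A were above it on every probe set, 12 in all. Signals of different probe sets cannot be ranked against each other, since each has its own affinity. The arrays numbered 1 stood apart from the others in both conditions, with 5.62% of all probe sets differing from the arrays numbered 2 and 3 at an adjusted p under 0.05 in limma. Differences by replicate number are therefore given beside those between conditions, and the difference between conditions is also given without both arrays numbered 1.

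**Figure D1:**
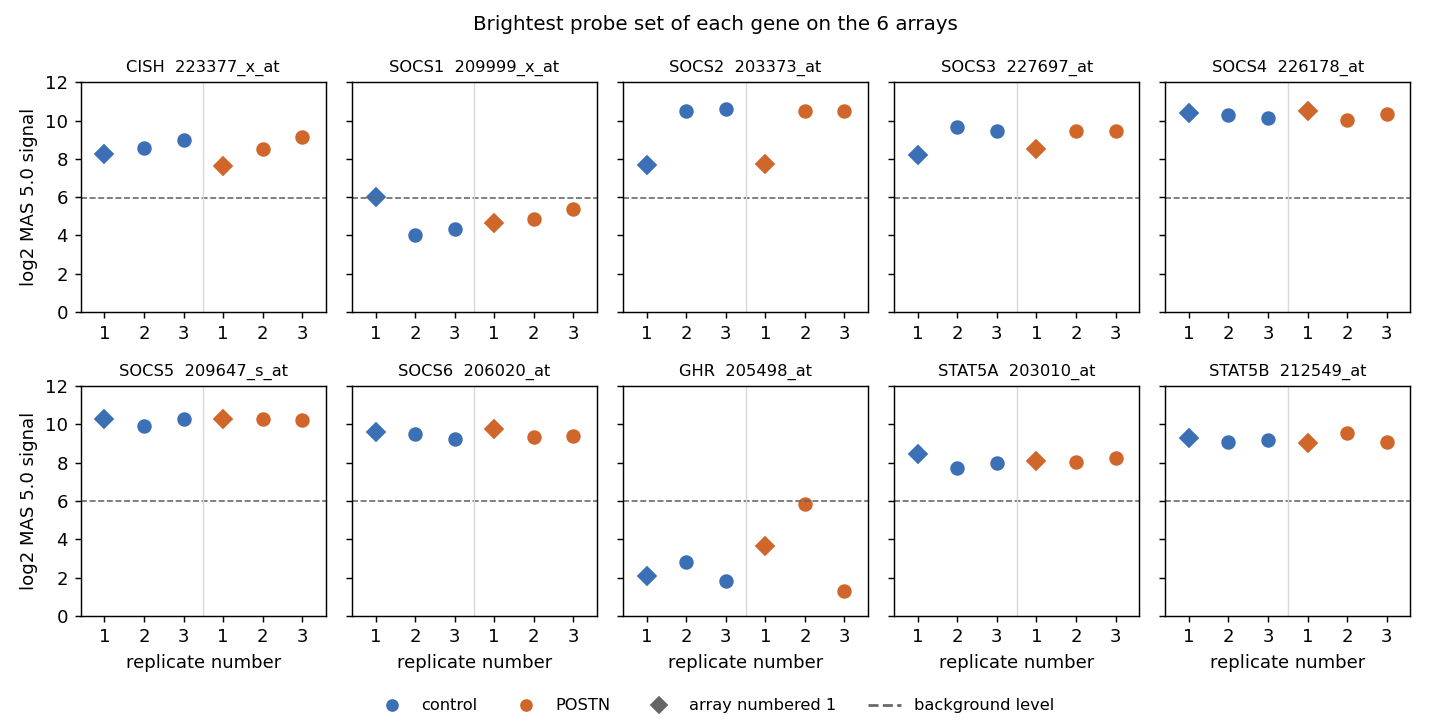
Log2 MAS 5.0 signal (y axis) of the brightest probe set of each of the 10 genes on the 3 control (blue) and 3 POSTN (orange) arrays, ordered by replicate number (x axis); diamonds mark the arrays numbered 1 and a dashed line marks 5.98, the background level. SOCS2 lay at 7.67 and 7.75 on the arrays numbered 1 and between 10.49 and 10.59 on the 4 others, while GHR lay under the dashed line on all 6 arrays.

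GHR, which binds growth hormone at the start of the pathway, was not above background on any array. Its only probe set, 205498_at, gave log2 signals of 2.10, 2.81 and 1.82 on control arrays 1, 2 and 3 and of 3.64, 5.87 and 1.32 on the POSTN arrays. The conditions overlapped, and the highest value, on POSTN array 2, still lay under 5.98. The log2 difference between conditions was 1.37 with a 95% confidence interval of -1.23 to 3.96, and it ran from 0.24 without POSTN replicate 2 to 2.51 without POSTN replicate 3, so that neither a rise nor a fall of GHR could be read from this probe set.

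STAT5A and STAT5B, the paralogous transcription factors that GHR and JAK2 activate, were above background on all arrays. STAT5A 203010_at gave log2 signals of 8.47, 7.71 and 7.99 on the control arrays and of 8.10, 8.03 and 8.23 on the POSTN arrays. The POSTN values lay inside the control range, and the log2 difference was 0.06 (95% confidence interval -0.42 to 0.55). STAT5B 212549_at, its brightest probe set, gave 9.29, 9.06 and 9.16 with no POSTN and 9.03, 9.54 and 9.07 with POSTN. Here too the conditions overlapped, and the log2 difference was 0.05 (95% confidence interval -0.32 to 0.41). The other STAT5B probe sets above background, 212550_at and 205026_at, differed by 0.09 and 0.10 on the log2 scale. Neither gene stood apart on the arrays numbered 1 on its brightest probe set. Those arrays differed from the 4 others by 0.30 (standard error 0.19) for STAT5A and by -0.05 (standard error 0.15) for STAT5B on the log2 scale. For STAT5A the gap was 0.63 among control arrays and -0.03 among POSTN arrays, and for STAT5B it was 0.17 and -0.27. On STAT5B 205026_at the arrays numbered 1 were the lowest (6.98 and 7.21 against 7.41 to 7.55).

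SOCS2, the inhibitor that binds GHR and limits growth hormone signalling, was the member that varied most among the probe sets above background. On 203373_at, the control arrays 1, 2 and 3 gave log2 signals of 7.67, 10.51 and 10.59, and the POSTN arrays gave 7.75, 10.49 and 10.52. The arrays numbered 1 were the lowest in both conditions, and POSTN minus control was 0.07, -0.02 and -0.07 for the arrays numbered 1, 2 and 3. Arrays numbered 1 lay 2.81 log2 units under the others (standard error 0.10), a 7.03-fold lower signal, with a gap of 2.87 among the control arrays and of 2.76 among the POSTN arrays. Of 25320 probe sets above background over the whole array, 4 had a lower difference. The second probe set above background, 203372_s_at, gave 6.35, 8.68 and 8.72 in control cells and 6.54, 8.71 and 8.65 with POSTN. The arrays numbered 1 were again the lowest, with a 4.76-fold lower signal. The third probe set, 232539_at, was within the background range on all arrays (1.76 to 5.28) and did not show the gap. Since these are bulk cultures, fewer cells with SOCS2 mRNA and less SOCS2 mRNA per cell cannot be told apart.
With POSTN, SOCS2 was at a mean log2 signal of 9.58 ± 1.59 (SD, n = 3) against 9.59 ± 1.66 (SD, n = 3) in control cells on 203373_at. The log2 difference of -0.01 had a 95% confidence interval of -1.89 to 1.88 in limma, because the spread by replicate number is left in the error. In a fit blocked on the replicate number, the interval was -0.21 to 0.20, and without both arrays numbered 1 the difference was -0.04. Leaving out only 1 of the low arrays unbalanced the groups, and the difference was -0.96 without control replicate 1 and 0.91 without POSTN replicate 1. On 203372_s_at the log2 difference was 0.05, with an interval of -0.31 to 0.41 in the blocked fit.

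CISH, the founding member of the family, which competes with STAT5 for binding sites on receptors, was lower on the arrays numbered 1 as well. Probe set 221223_x_at gave log2 signals of 8.08, 8.85 and 8.58 on the control arrays and of 7.47, 8.93 and 8.71 on the POSTN arrays. The 2 arrays numbered 1 lay under the 4 others by 0.99 log2 units (standard error 0.18), with a gap of 0.64 among control arrays and of 1.34 among POSTN arrays. Probe set 223377_x_at, the brightest, gave 8.27, 8.54 and 8.97 without POSTN and 7.62, 8.51 and 9.16 with POSTN. Its arrays numbered 1 were also the lowest, by 0.85 log2 units (standard error 0.22, not called by limma), with a gap of 0.49 among control arrays and of 1.22 among POSTN arrays. On 223961_s_at (7.05 to 7.93) the arrays numbered 1 overlapped the others. Endings in _x_at and _s_at mark probe sets that can share probes with other transcripts, and CISH has no other kind here. POSTN and control differed by -0.16 (95% confidence interval -0.92 to 0.60) on 223377_x_at and by -0.13 (-0.91 to 0.65) on 221223_x_at. Without both arrays numbered 1, these log2 differences were 0.08 and 0.10, and without POSTN replicate 1 alone that of 223377_x_at was 0.25.

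SOCS3, the inhibitor of IL6 type signalling through the receptor chain gp130, was also lower on the arrays numbered 1, with a smaller gap than SOCS2. Its only probe set above background, 227697_at, gave log2 signals of 8.22, 9.67 and 9.46 on the control arrays and of 8.54, 9.45 and 9.44 on the POSTN arrays. The arrays numbered 1 did not overlap the others and lay 1.12 log2 units under them (standard error 0.13), a 2.18-fold lower signal. The gap was 1.34 among control arrays and 0.91 among POSTN arrays. POSTN and control differed by 0.03 on the log2 scale (95% confidence interval -0.78 to 0.84, and -0.24 to 0.30 in the blocked fit). Of its 3 dimmer probe sets, 206359_at crossed the background level between arrays. It gave 3.60, 6.005 and 6.15 in control cells and 5.91, 6.64 and 6.24 with POSTN, so that its log2 difference between conditions of 1.01 fell to 0.36 without both arrays numbered 1. Probe sets 206360_s_at and 214105_at differed by -0.42 and 1.75 between conditions, within or near the background range. On both, the arrays numbered 1 overlapped the others, with log2 differences of 0.60 (standard error 0.69) and -1.23 (standard error 0.96).

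SOCS1, an inhibitor of Janus kinases that is best known from interferon signalling, was within the background range on average on its 4 probe sets. Its brightest, 209999_x_at, gave log2 signals of 6.01, 3.998 and 4.32 on the control arrays and of 4.65, 4.87 and 5.41 on the POSTN arrays. Only control array 1 reached the background level there, and the conditions overlapped. Probe set 210001_s_at gave 4.98, 3.89 and 5.68 in control cells and 1.91, 3.67 and 3.04 with POSTN. All POSTN values were under all control values, with a log2 difference of -1.98 (95% confidence interval -3.91 to -0.04), but no array reached 5.98. The 2 remaining probe sets of SOCS1 differed by 1.17 (213337_s_at) and -0.72 (210000_s_at), so the direction was not shared by the probe sets of this gene. On POSTN array 1, 213337_s_at gave 6.89, above the background level, and its difference was -0.33 without both arrays numbered 1.

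SOCS4, SOCS5 and SOCS6 belong to the branch of the family with long amino-terminal regions, of which SOCS4 and SOCS5 are known for acting on the EGF receptor and SOCS6 for acting on receptor tyrosine kinases. SOCS4 226178_at gave log2 signals of 10.38, 10.30 and 10.15 on the control arrays and of 10.52, 10.01 and 10.34 on the POSTN arrays. SOCS5 209647_s_at gave 10.30, 9.90 and 10.26 without POSTN and 10.27, 10.28 and 10.26 with POSTN. In both genes the conditions overlapped, with log2 differences of 0.01 (95% confidence interval -0.30 to 0.32) and 0.11 (-0.17 to 0.39). The other SOCS5 probe sets, 208127_s_at and 209648_x_at, differed by 0.01 and 0.06. The dimmer SOCS4 probe set 1552792_at differed by -0.45 (95% confidence interval -1.26 to 0.36). On the arrays numbered 1, SOCS4 226178_at was higher than on the 4 others without overlap, by 0.25 (standard error 0.11, not called). The gap was -0.08 on SOCS4 1552792_at and 0.11 (standard error 0.11) on SOCS5 209647_s_at, both with overlap. SOCS6 too ran opposite to SOCS2 between the replicate numbers. On 227542_at the control arrays gave 9.64, 9.19 and 8.99 and the POSTN arrays 9.77, 9.06 and 8.95, so that those numbered 1 were the highest in each condition, by 0.66 log2 units (standard error 0.12). The 2 other SOCS6 probe sets kept this order with smaller gaps, of 0.30 on 206020_at and 0.44 on 214462_at. Between conditions, the 3 SOCS6 probe sets differed by -0.01 to 0.06 on the log2 scale. SOCS7, the family member that is not among the 10 genes, gave 9.84 to 10.13 over the 6 arrays, with a log2 difference of -0.04 between conditions.

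Taking the 10 genes together, no probe set passed the adjusted threshold for POSTN against control. In limma, 0 of 29 had an adjusted p under 0.05, as had 0% of the 54613 probe sets, and the lowest adjusted p among the 29 was 1. At an unadjusted p under 0.05, limma counted 1 of the 29 (3.02% of all probe sets), and the methods' t-test counted 0 of the 29 after Benjamini-Hochberg adjustment. The study's thresholds (p under 0.05 with no adjustment, and a change of more than 2-fold either way) were met in limma by 1 of the 29, the dim SOCS1 probe set 210001_s_at (fold change 0.25, unadjusted p = 0.047), against 2.56% of all probe sets. This probe set was also the only one of the 29 on which the conditions did not overlap, against 7.94% of all probe sets. By the methods' t-test, its unadjusted p was 0.054, and in the blocked fit it was 0.068. Among the 18 probe sets above background, 13 were higher and 5 were lower with POSTN, with log2 differences from -0.45 to 0.11. After median centring of the arrays, the split turned to 7 higher and 11 lower, while 35.5% of all 25320 probe sets above background were higher, against 50.1% before centring. The median log2 difference of all probe sets above background was 0.00038, and -0.05 after median centring.

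**Figure D2:**
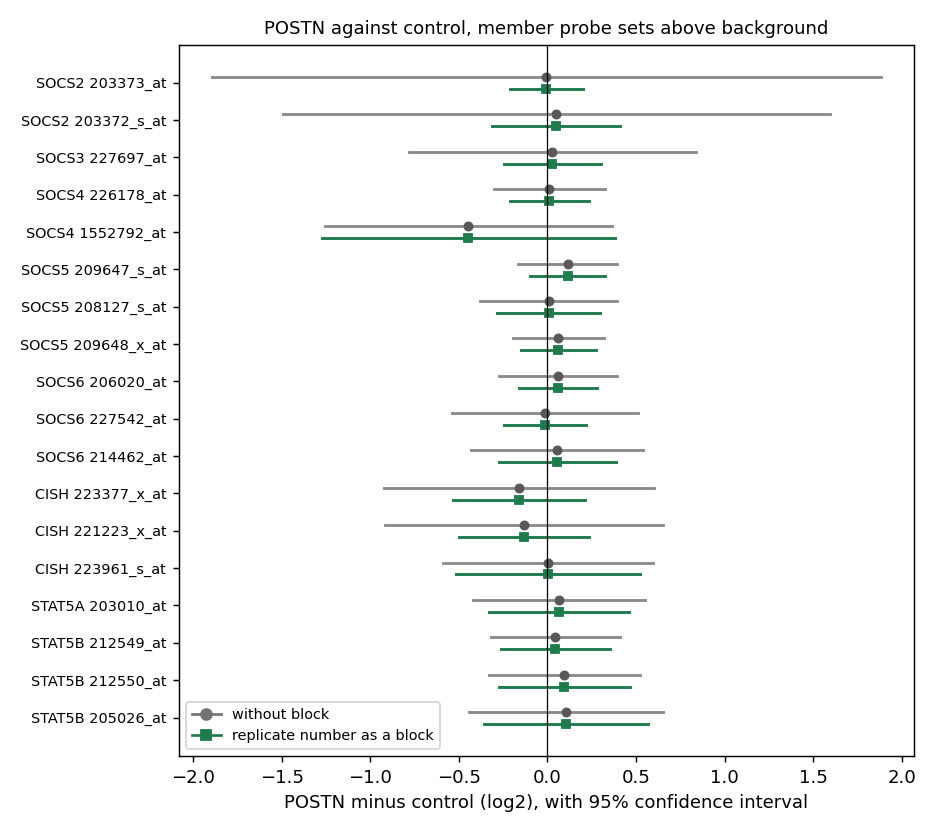
Log2 difference (POSTN minus control, x axis) with its 95% confidence interval for the 18 probe sets of the axis above background, from limma without a block (grey) and with a block for the replicate number (green). All intervals of both kinds include 0, and for SOCS2 203373_at the interval narrows from -1.89 to 1.88 without the block to -0.21 to 0.20 with it.

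By replicate number, 4 of the 29 probe sets were called lower on the arrays numbered 1 in limma with the condition as a covariate (both of SOCS2 above background, SOCS3 227697_at and CISH 221223_x_at), beside 2.71% of all probe sets. Called higher was 1 of the 29, SOCS6 227542_at, beside 2.91% of all probe sets. These genes had been chosen with this difference known, so nothing is read from their share. The arrays numbered 1 did not overlap the 4 others on 12 of the 29 probe sets, against 26.3% of all, and on 10 of the 18 above background, against 39.9% of all above background. These calls rest on limma's variance trend, without which 0 of the 29 and 0 of all probe sets were called. Without POSTN replicate 1, CISH 221223_x_at and SOCS6 227542_at were no longer called, and without control replicate 1, SOCS6 227542_at was not. In each of the 5 called probe sets, the control and the POSTN array numbered 1 deviated in the same direction. Among the 18 probe sets above background, 10 lay lower and 8 higher on the arrays numbered 1, from -2.81 to 0.66, and the median of all 25320 such probe sets was 0.02 on the log2 scale.

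**Figure D3:**
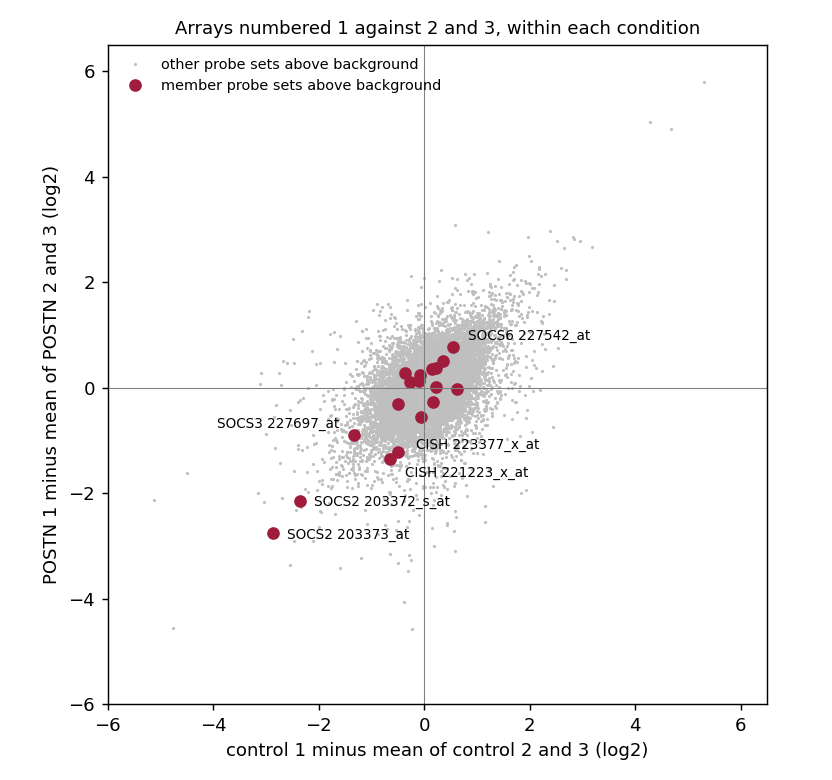
Log2 difference of array 1 from the mean of arrays 2 and 3 among the control arrays (x axis) and among the POSTN arrays (y axis), for the 25320 probe sets above background (grey) and the 18 of the axis among them (red). SOCS2 203373_at lies at -2.87 and -2.76, near the lower left edge of the grey points, and SOCS6 227542_at lies at 0.55 and 0.77.

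The rest of the pathway was followed by the brightest probe set per gene, with no gene at an adjusted p under 0.05 between conditions in any of the lists. Calls by replicate number in these lists stand beside 2.91% of all probe sets called higher and 2.71% called lower on the arrays numbered 1. In a fit of only the probe sets above background, 16.5% were called. The lists were chosen with earlier results known, so nothing is read from their counts. All 4 Janus kinases were above background on all arrays. TYK2 was higher on the arrays numbered 1 by 0.49 log2 units (standard error 0.12, called by limma), and JAK2, the kinase of GHR, differed by -0.34 (standard error 0.31, not called). STAT3 (0.03) and STAT6 (-0.14) differed little by replicate number and were not called, and STAT4 was within the background range. Of 11 measured receptor chains that signal through STAT5, 3 were above background, among them EPOR, the erythropoietin receptor, on 396_f_at. EPOR differed by -0.51 (not called, with -0.03 among control and -0.98 among POSTN arrays). The ending of its probe set is not a plain _at, and its specificity for EPOR was not tested. IL7R, the interleukin-7 receptor, was called (-2.60, standard error 0.29), at log2 signals of 4.85 (control) and 5.94 (POSTN) on the arrays numbered 1 and of 7.79 to 8.36 on the 4 others. It thus lay under the background level on both arrays numbered 1 and above it on the 4 others. PRLR, the prolactin receptor, stayed within the background range on all arrays (4.99 to 5.95).

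The IL6 branch, which acts through gp130 and STAT3, differed by replicate number in its ligands IL6 and LIF. IL6 205207_at gave log2 signals of 6.78, 7.86 and 8.28 on the control arrays and of 6.95, 7.93 and 8.54 on the POSTN arrays, lowest on the arrays numbered 1 in each condition. The difference was -1.29 (standard error 0.23) for IL6 and -0.59 (standard error 0.13) for LIF, the only ligands above background among the 10 measured, and limma called both. Growth hormone itself (GH1 and GH2) was under the background level on all arrays. IL11 206926_s_at, with a mean under that level, gave 6.25, 5.85 and 6.35 on the control and 4.07, 4.77 and 3.46 on the POSTN arrays. Its difference was 0.05 by replicate number and -2.05 between conditions (unadjusted p = 0.0059 in limma, not called). It met the study's thresholds in limma, as did 2.56% of all probe sets. LEPR 1556919_at, a receptor chain listed for STAT5 and dim on average, met them too (-1.36, unadjusted p = 0.045 in limma). The conditions did not overlap on LEPR, nor on the ligand PRL 205445_at (4.11 to 5.90 on control and 6.09 to 6.41 on POSTN arrays). PRL did not meet the thresholds (unadjusted p = 0.10 in limma). Over all probe sets, 7.94% showed no overlap between conditions. Among the receptor chains of the IL6 branch, IL6ST, which encodes gp130, was called lower on the arrays numbered 1. It lay lower by 0.38 log2 units (standard error 0.06), with a gap of 0.25 among control and of 0.51 among POSTN arrays. IL11RA and IL6R were not called. IL11RA changed direction between the conditions, at -0.95 among control and 0.24 among POSTN arrays, and IL6R was at 0.13 and 0.49.

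Targets of the pathway did not move in 1 direction. Of 12 growth hormone and STAT5 targets, 8 were above background. On the arrays numbered 1 limma called 2 higher and 1 lower, beside 2.91% and 2.71% of all probe sets. IGFBP3, the main carrier of insulin-like growth factors, was higher by 2.23 (standard error 0.09), at 12.17 and 12.10 on the arrays numbered 1 against 9.67 to 10.04 on the others. MYC was higher by 0.28 (standard error 0.06), and CCND1, which encodes cyclin D1, was lower by 0.49 log2 units (standard error 0.11), with a gap of 0.71 among control arrays and of 0.26 among POSTN arrays. IGF1, the hepatic growth hormone target, crossed the background level between arrays (5.09 to 6.87), and its difference of -0.48 was not called. Of 12 measured STAT3 and acute phase targets, the 3 called were the fibrinogen chains, all higher on the arrays numbered 1, FGB by 2.65, FGG by 2.22 and FGA by 2.03 log2 units. The acute phase genes CRP and HP were within the background range on all arrays. With POSTN, the log2 differences of the targets above background were between -0.34 and 0.22.

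The SOCS box works with elongins, a cullin and a RING protein. All 6 genes listed for these kinds of subunit were above background on all arrays. RNF7 and CUL5 were called lower on the arrays numbered 1, by 0.35 (standard error 0.09) and 0.31 (standard error 0.06) log2 units, and CUL2 (-0.29) was not. The gap of RNF7 was 0.19 among control arrays and 0.51 among POSTN arrays. A further 11 measured genes were listed as negative regulators of the pathway, which need not be their only role. ADAM17 was called higher (0.33, standard error 0.07) and PTPN11, a phosphatase of JAK and STAT signalling, lower (-0.23, standard error 0.05). PIAS1 (0.47) and PTPN6 (0.38) were not called. Of 10 measured adaptors and co-factors, GAB1 was called higher (0.79, standard error 0.18), and STAM (-0.42, standard error 0.07) and SHC1 (-0.26, standard error 0.05) lower. Between conditions, the genes of these 3 lists above background differed by -0.17 to 0.17 on the log2 scale.

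**Figure D4:**
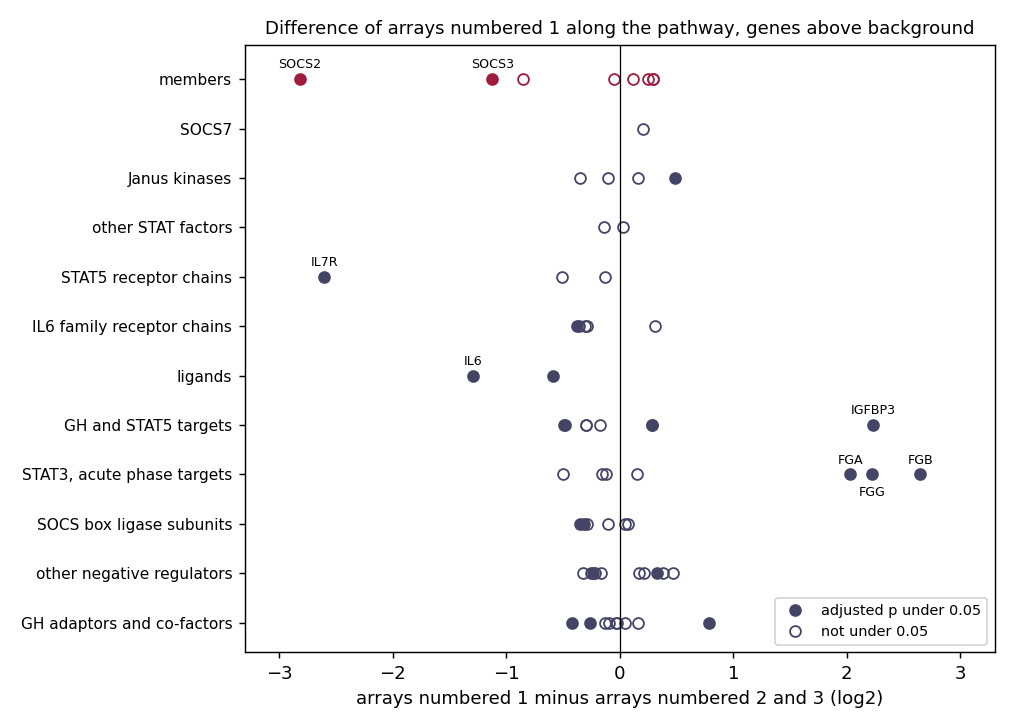
Log2 difference of the arrays numbered 1 from those numbered 2 and 3 (x axis) for genes with a brightest probe set above background, by role in the pathway (y axis); filled points had an adjusted p under 0.05 in limma, and genes past 1 log2 unit are named. SOCS2 (-2.81), IL7R (-2.60) and IL6 (-1.29) lie to the left, and IGFBP3 (2.23) and the fibrinogen chains (2.03 to 2.65) to the right.

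The genes whose pattern over the 6 arrays was most like that of SOCS2 were LINC00973, TFEC, JARID2, IL13RA2 and SSX1, out of 11549 genes above background. Their Pearson correlations with SOCS2 203373_at were at least 0.998, and they describe the 2 arrays numbered 1 against the 4 others, which share cell line and platform, more than 6 separate points. TFEC, a transcription factor of the MiT/TFE family, gave log2 signals of 10.36, 12.41 and 12.37 on the control arrays and of 10.42, 12.33 and 12.40 on the POSTN arrays. IL13RA2, a decoy receptor for interleukin-13, gave 12.83, 14.05 and 14.04 without POSTN and 12.75, 14.06 and 14.06 with POSTN. For CISH 223377_x_at, the most alike were MEAK7, AVIL, WDR12, LGALS3 and ATOSB, with correlations of 0.984 to 0.992. Of these, LGALS3, which encodes galectin-3, moved only between 13.69 and 13.85. GHR was not compared in this way, since it was within the background range.

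Markers of the labelled cell type were seen, with gaps that ran along with the replicate number. Of 10 measured hepatocyte and HCC markers, 7 had a mean above background, among them the keratins KRT8 and KRT18 and the fetal liver protein AFP, which gave 8.85 to 9.16. APOA1 and, on 5 of 6 arrays, GPC3 were within the background range. TF and ALB were called higher on the arrays numbered 1, by 2.83 and 1.85 log2 units. TF, which encodes transferrin, gave 10.22 and 10.32 there against 7.35 to 7.47. SERPINA1 was called higher too, but its mean was within the background range, and it was above that level on the arrays numbered 1 alone (7.79 and 7.82 against 4.14 to 5.85). The list went both ways without further calls, with APOB at -0.65 (no overlap), TTR at -0.44, KRT18 at -0.16, KRT8 at -0.03 and AFP at 0.12. The summed linear signal of the 10 markers was 47039 to 51067 on the arrays numbered 1 and 50124 to 54990 on the others. Of 8 stellate cell and fibroblast markers, 1 (COL1A1) had a mean above background, and COL1A2, PDGFRB, LRAT and POSTN itself were under it on all arrays, while COL3A1 was above it on the 4 arrays numbered 2 and 3 (6.37 to 6.57) and under it on both numbered 1 (2.49 and 5.598), and was not called. The summed signals of this list were 484 to 490.5 on the arrays numbered 1 and 458 to 676 on the others. Of 4 leukocyte markers, 2 (ITGAM and CD3E) were above background on average, with PTPRC under it on all arrays, and their sums were 469 to 490.0 against 346 to 430.3. Of 4 endothelial markers, PECAM1 and KDR were above background, PECAM1 was called higher on the arrays numbered 1 (0.51), CDH5 was under it on all arrays, and their sums were 1411 to 1667 against 1007 to 1269. The 3′ to 5′ log2 difference of the ACTB control probe sets, a sign of RNA integrity, was 0.90 and 0.93 on the arrays numbered 1 and 0.81 to 1.09 on the others. For GAPDH it was -0.06 and -0.07 against -0.05 to -0.00. The part of these in the lower SOCS2, SOCS3 and CISH signals was not tested.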

How the data were processed

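Hybridised arrays were read on a GeneChip scanner, and the authors derived the signals by MAS 5.0 with affy in R (tool versions: not given in the sources used here). Deposited values are log2 signals, and their linear mean without the highest and lowest 2% is 500.0 on each array. MAS 5.0 subtracts background and mismatch signal, so that dim probe sets scatter widely. No columns were left unused, and no 2 arrays held equal values.

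After removal of 62 Affymetrix controls, 54613 probe sets were fitted with limma 3.58.1 in R 4.3.3 (eBayes with a variance trend, Benjamini-Hochberg adjustment over all), for POSTN against control and, with condition as a covariate, for arrays numbered 1 against 2 and 3. The code was tested on simulated data. Symbols came from the platform's annotation table: 41091 probe sets had 1 symbol, 1801 had several and 11721 had none, and only the first were named. Listed genes without such a probe set were not analysed here. The members and lists were chosen with earlier results of these data known. All members are named. From the lists, up to 3 genes were to be named by the size of their difference on the arrays numbered 1, among genes above background in either set of arrays, and further genes were named after their values had been seen. Likeness was taken on the brightest probe set per gene.

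Deviations of same-numbered arrays from their condition mean correlated at 0.529, 0.235 and 0.239 above background, and at 0.088, 0.034 and 0.025 over all probe sets. The first were taken as pairing the samples, from the data and not from the labels. Above background, control 2 with POSTN 3 (0.201) and control 3 with POSTN 2 (0.150) correlated positively too. Arrays numbered 1 correlated negatively with the unlike-numbered arrays of the other condition (-0.358 to -0.304). These values thus set the arrays numbered 1 apart, and do not show that number 2 pairs with 2 or number 3 with 3. The number of arrays (3 per condition) limits the precision: above background, the standard error of a log2 difference had a median of 0.18. The alternatives were other normalizations, an offset of 50, a filter on dim probe sets, leaving out _x_at and _s_at probe sets, no variance trend, the replicate block, leaving out arrays, no condition covariate, and the methods' t-test.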

Additional observations from a re-analysis of the deposited data

How the results depend on the processing

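For POSTN against control, 0 of the 29 probe sets were called in any setting, the replicate block included (count of 0, lowest adjusted p of 0.966, and 0 at an unadjusted p under 0.05 against 4.76% of all probe sets), as were 0 by the methods' t-test after adjustment. The fit blocked on the replicate number changed no call. Leaving out 1 array moved the difference of SOCS2 between -0.96 and 0.91, of CISH between -0.53 and 0.25, of SOCS3 between -0.42 and 0.33, and of GHR between 0.24 and 2.51. Without both arrays numbered 1, the brightest probe sets differed by 0.28 (STAT5A), 0.19 (STAT5B), -0.12 (SOCS3) and -0.05 (SOCS4). Those of SOCS5, SOCS6, SOCS1 and GHR then differed by 0.18, 0.01, 0.98 and 1.28, with 0 of the 29 called. For the arrays numbered 1 against 2 and 3, 5 of the 29 were called, against 5.62% of all probe sets. Without the variance trend the count was 0 (limma, lowest adjusted p of 0.168, with 7 of the 29 and 11.5% of all at an unadjusted p under 0.05), as over the whole array. With _x_at and _s_at probe sets left out it was 3 of 16 (SOCS2, SOCS3 and SOCS6), against 4.47% of all, since CISH then has no probe set. Leaving out 1 array gave 3 to 6. It was 3 (SOCS2 with both, and SOCS3) against 1.2% of all without POSTN replicate 1, 4 against 1.31% without control replicate 1, and 6 against 5.63% without control replicate 2. CISH 223377_x_at was called in addition after quantile normalization, above background only, without control replicate 2, and without the condition covariate. No called difference of the brightest probe sets changed direction. GHR on all arrays and SOCS1 on average lay within the background range, which limits what can be said of them.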
